A study of Mus musculus with 12 samples.

Results

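The 9 genes followed here are hormone receptors and genes of hormone-sensing mammary cells: Esr1, Pgr, Prlr, Cited1, Tnfsf11, Greb1, Stat5a, Stat5b and Nr3c1. They were chosen by symbol, as the rows of the deposited count table that carry these names, and make up 9 of its 25210 genes. All 9 had enough counts to be tested, as had 15316 genes in all. Organoids from the mammary gland of female virgin FVB/N mice aged 8 to 11 weeks were embedded in growth-factor-reduced Matrigel, in a minimal medium for which the labels name no added hormone. They were kept for 7 days with the vehicle DMSO or with CHIR99021 at 1, 1.5 or 3 µM. CHIR99021 is an inhibitor of the kinase GSK3 and was used to drive WNT/CTNNB1 signalling. There were 3 cultures, each from a different animal, and every culture was split over the 4 treatments, which gives 12 libraries of polyadenylated RNA. All groups share the strain, the matrix and the medium, and what is measured is the mixture of cells that the organoids held after a week in the gel. The titles also tag cultures 1, 2 and 3 as med, min and max, and do not say what the tags mean.

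In the mammary gland, oestrogen and progesterone act through the nuclear receptors encoded by Esr1 and Pgr, which are made by a subset of luminal epithelial cells. Those cells pass the signal on with signalling factors, among them RANK ligand (Tnfsf11), and Pgr is itself a classical target of the oestrogen receptor. Prolactin binds the cell-surface receptor Prlr, which signals through the kinase JAK2 to STAT5A and STAT5B, the factors that switch on milk protein genes. Glucocorticoids act through the nuclear receptor encoded by Nr3c1 and work with STAT5 in lactation.

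Library totals ran from 10.1 to 24.5 M counts, and the group means from 16.3 ± 1.98 to 18.5 ± 5.24 M (SD, n = 3). Levels below are in CPM, the count per 1 M counts of the library after scaling by trimmed means (TMM). Values for cultures 1, 2 and 3 are always given in that order. A gene is said to have risen or fallen where edgeR's quasi-likelihood test gave a Benjamini-Hochberg adjusted p under 0.05 over all 15316 genes. Log2 fold changes are given with their standard error (SE).

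At 3 µM, 6 of the 9 genes fell against DMSO and none rose (edgeR). Among all tested genes 57.5% were called in this comparison, 27.7% as lower and 29.9% as higher. The genes that fell were the oestrogen, progesterone, prolactin and glucocorticoid receptors (Esr1, Pgr, Prlr, Nr3c1) and both STAT5 genes. The median log2 fold change of the 9 was −0.76, against −0.03 over all tested genes. The 6 that fell were also those whose 3 µM libraries all lay below every DMSO library, a pattern seen in 29.9% of tested genes. The call was made for 7 genes with the replicate number as a block and in DESeq2, where Greb1 joined them. The block also called more of all tested genes, in the numbers given with the lists below. Leaving out culture 2 from all groups left 2 of the calls, Prlr and Stat5a, while the number of genes called in all fell from 8814 to 4769. Without culture 3 the number of members called was 6, with Greb1 in place of Esr1. These fits, and all others below that leave out libraries to compare doses, had no block. Differences between the animals therefore stayed in their spread. In bulk RNA, fewer cells that make a transcript and less of it per cell cannot be told apart, and this holds for every change below.

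**Figure D1:**
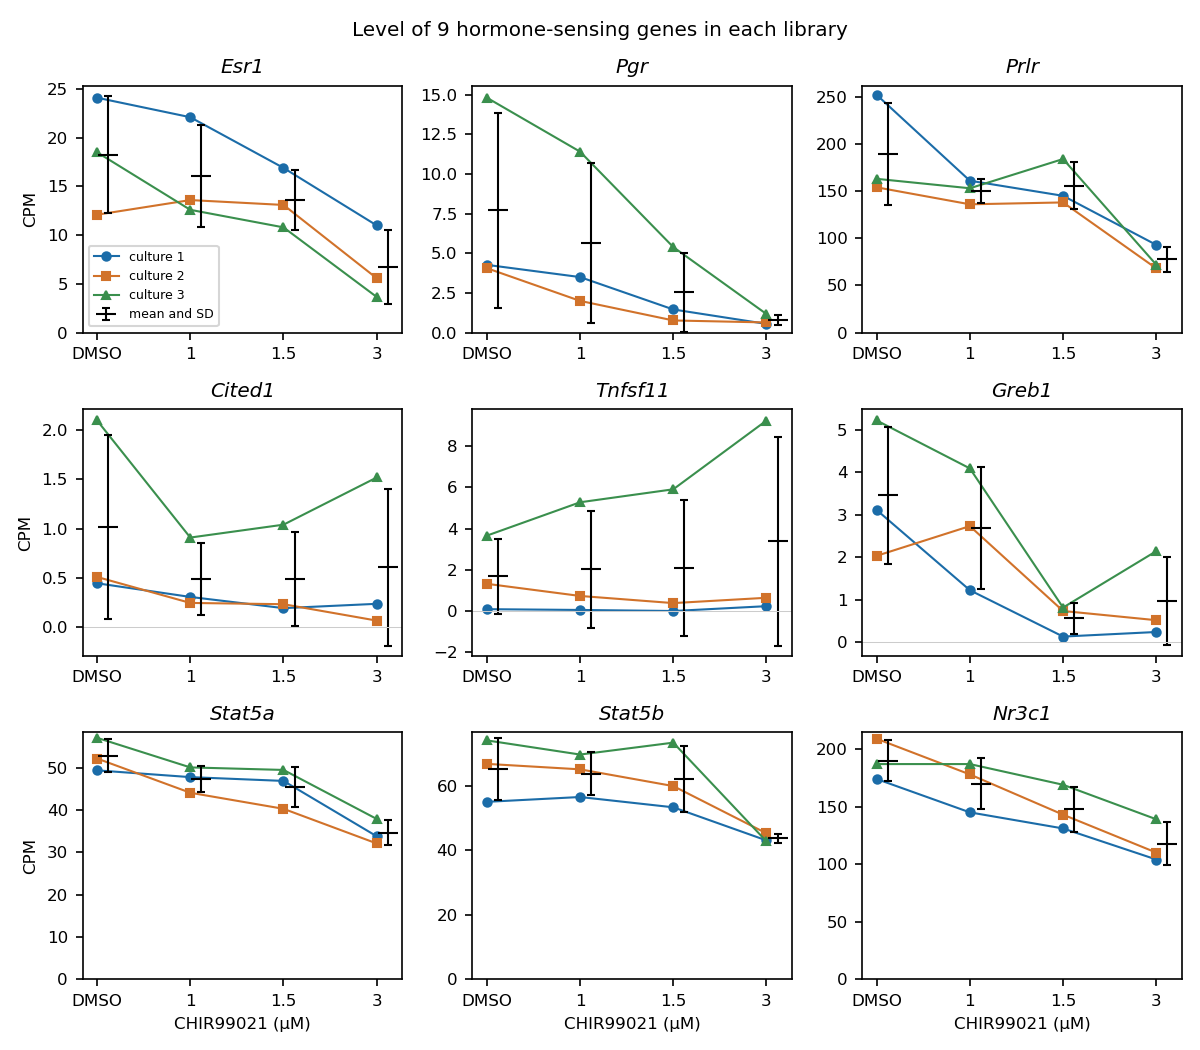
Level of each gene in CPM (linear axis) in DMSO and at 1, 1.5 and 3 µM CHIR99021, with 1 line per culture; black bars are the mean and SD of 3 libraries, and where the SD exceeds the mean the bar runs below 0. Pgr in culture 3 goes from 14.8 CPM in DMSO to 1.17 at 3 µM, and Tnfsf11 in culture 3 lies above both other cultures at each dose.

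Esr1 (ENSMUSG00000019768, chromosome 10, 4611593 to 5005614, GRCm38) encodes oestrogen receptor alpha. It measured 24.1, 12.1 and 18.5 CPM in DMSO, 22.1, 13.6 and 12.6 at 1 µM, 16.9, 13.1 and 10.8 at 1.5 µM, and 11.0, 5.58 and 3.66 at 3 µM. All 3 µM libraries lay below all DMSO libraries, and the groups at 1 and 1.5 µM overlapped DMSO. The mean at 3 µM was 2.7-fold below DMSO, with a log2 fold change of −1.44 ± 0.413 (adjusted p = 0.0127, edgeR), and all 3 cultures were lower. Without culture 2 or without culture 3 the adjusted p was 0.0951 or 0.0762. Between 1.5 and 3 µM the difference was −1.02 ± 0.41 (adjusted p = 0.0867). That step passed the test with the replicate block (−1.10, adjusted p = 0.00491), with scaling by total counts alone (−1.30, 0.0386), without 3 µM replicate 1 (−1.55, 0.0216) and, at the threshold, without culture 1 (−1.37, 0.05).

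Pgr (ENSMUSG00000031870, chromosome 9, 8899833 to 8968611) encodes the progesterone receptor and had the largest change among the 9 genes. It measured 4.27, 4.06 and 14.8 CPM in DMSO, 3.50, 2.0 and 11.4 at 1 µM, 1.46, 0.768 and 5.39 at 1.5 µM, and 0.549, 0.642 and 1.17 at 3 µM. Its level went down at each successive dose in each of the 3 cultures, and culture 3 was the highest at every dose. The groups at 1 and 1.5 µM overlapped DMSO through that culture alone. At 3 µM the mean was 9.77-fold below DMSO (log2 fold change −3.28 ± 0.946, adjusted p = 0.0134, edgeR), and these libraries held 7, 10 and 17 counts. Without DMSO replicate 3 the change was −2.43 and missed the threshold (adjusted p = 0.0519), as it did without culture 1 (0.0757) or culture 2 (0.0576). The difference at 1.5 µM, −1.61 ± 0.856, was not called (adjusted p = 0.187). With the replicate block it was −1.72 and called (adjusted p = 0.00128), as it was without culture 3 (−1.91, 0.0194). The block also called the steps from 1 to 1.5 µM (−1.20, adjusted p = 0.0174) and from 1.5 to 3 µM (−1.44, adjusted p = 0.00957).

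The promoter of Pgr is shown because this gene changed most, together with 2 promoters of genes that fell at 3 or 1.5 µM and hold motif matches. Each is the 250 bases before a RefSeq start (build GRCm38.p6), written 5′ to 3′ along the gene's strand. Capitals mark matches on either strand to CTTTGAT (the core recognised by TCF/LEF factors, the DNA-binding partners of β-catenin), TTCNNNGAA (STAT factors), AGGTCA (core of an oestrogen response element) or AGAACA (core shared by glucocorticoid and progesterone response elements). No matches of different motifs overlap in the sequences shown.
Pgr, chr9:8899583-8899832, plus strand: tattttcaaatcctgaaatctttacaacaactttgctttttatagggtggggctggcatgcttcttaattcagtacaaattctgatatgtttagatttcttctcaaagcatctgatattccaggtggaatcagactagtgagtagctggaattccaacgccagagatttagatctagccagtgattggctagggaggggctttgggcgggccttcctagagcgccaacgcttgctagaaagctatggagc
Prlr, an alternative start, chr15:10223656-10223905, plus strand: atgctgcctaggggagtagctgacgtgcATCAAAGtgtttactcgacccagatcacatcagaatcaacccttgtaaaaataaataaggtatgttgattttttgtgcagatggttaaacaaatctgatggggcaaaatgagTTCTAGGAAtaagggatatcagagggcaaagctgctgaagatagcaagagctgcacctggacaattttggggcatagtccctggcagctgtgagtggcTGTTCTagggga
Greb1, chr12:16800887-16801136, minus strand: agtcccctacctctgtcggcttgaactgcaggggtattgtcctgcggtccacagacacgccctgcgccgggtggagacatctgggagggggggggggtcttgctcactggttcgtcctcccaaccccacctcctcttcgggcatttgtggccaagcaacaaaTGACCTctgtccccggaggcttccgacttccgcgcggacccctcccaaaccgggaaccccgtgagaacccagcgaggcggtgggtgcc
The Pgr window holds none of the 4 motifs. The Prlr window holds a TCF/LEF match beginning 222 bases before the start, a STAT match at 110 and an AGAACA match at 12. The Greb1 window holds an AGGTCA match at 88. RefSeq promoters were searched for 8 of the 9 genes, 16 windows in all, and Nr3c1 was left out of this search. A TCF/LEF match occurs in 1 of these 16, against 3.21% of 32851 promoters of the same length. STAT matches occur in 2 of 16 against 7.02%, AGGTCA in 5 of 16 against 14.0%, and AGAACA in 1 of 16 against 16.1%. A match is a description of letters and shows no binding. The windows are not independent, since a gene can have several. Those with AGGTCA include the Stat5a windows and a Stat5b window, and the latter has letters similar to a Stat5a window around the match.

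Greb1 (ENSMUSG00000036523, chromosome 12, 16670615 to 16800886) is an oestrogen-induced gene whose product is a cofactor of the oestrogen receptor. It measured 3.11, 2.03 and 5.22 CPM in DMSO, 1.22, 2.73 and 4.09 at 1 µM, 0.127, 0.730 and 0.811 at 1.5 µM, and 0.235, 0.513 and 2.14 at 3 µM. All 1.5 µM libraries lay below all libraries of DMSO and of 1 µM, while culture 3 at 3 µM lay within the DMSO range. Greb1 was the only member called at 1.5 µM (log2 fold change −2.60 ± 0.832, adjusted p = 0.0418, edgeR), where 27.3% of all tested genes were called and 11.8% were called lower. Under the replicate block Pgr, Stat5a and Nr3c1 were called lower at this dose as well, and more of all tested genes were called. The Greb1 call without the block was lost without any single DMSO library, any single 1.5 µM library or 1 µM replicate 2, with changes from −2.91 to −2.16 and adjusted p from 0.0605 to 0.121. It was also lost without culture 1 (−2.24, 0.103) or culture 2 (−3.12, 0.234). At 3 µM the difference was −1.84 ± 0.809 and was not called (adjusted p = 0.0744). It was called with the replicate block (−2.09, adjusted p = 0.00499), in DESeq2 (−1.87, 0.0418), without 3 µM replicate 3 (−3.19, 0.00965) and without culture 3 (−2.76, 0.0246). The step from 1 to 1.5 µM was −2.22 ± 0.826 (adjusted p = 0.153), and with the block −2.18 (adjusted p = 0.0176). The exons of Greb1 overlap Gm48140 on the opposite strand, so some of its few counts (2 to 97 in a library) are uncertain.

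Tnfsf11 (ENSMUSG00000022015, chromosome 14, 78277445 to 78308043) encodes RANK ligand, a signal that progesterone raises in hormone-sensing cells. It measured 0.0889, 1.32 and 3.66 CPM in DMSO, 0.0508, 0.731 and 5.28 at 1 µM, 0, 0.384 and 5.91 at 1.5 µM, and 0.235, 0.642 and 9.25 at 3 µM. Culture 3 was highest and culture 1 lowest at every dose, and all dose groups overlapped DMSO. Culture 1 held 0 to 3 counts in each library, and its 0 at 1.5 µM allows up to 0.191 CPM (3 counts, counting error only). In culture 3 the level was higher at each successive dose, from 68 counts in DMSO to 134 at 3 µM, whereas culture 2 went from 1.32 to 0.642 CPM. The log2 fold change at 3 µM was 1.00 ± 1.84 (adjusted p = 0.662, edgeR), and without 3 µM replicate 3 it was −1.91, and without culture 3 it was −0.41.

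Cited1 (ENSMUSG00000051159, chromosome X, 102247381 to 102252181) encodes a coregulator that binds the oestrogen receptor and marks hormone-sensing luminal cells. It measured 0.444, 0.508 and 2.1 CPM in DMSO, 0.305, 0.244 and 0.909 at 1 µM, 0.191, 0.231 and 1.04 at 1.5 µM, and 0.235, 0.0642 and 1.52 at 3 µM. Culture 3 was highest at every dose and the groups overlapped. At 3 µM all 3 cultures were below their own DMSO library, but the log2 fold change of −0.76 ± 1.06 was not called (adjusted p = 0.555, edgeR), and without DMSO replicate 3 it was 0.32. Its libraries held 1 to 39 counts, and the SE was larger than the difference.

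Prlr (ENSMUSG00000005268, chromosome 15, 10177238 to 10349180) encodes the prolactin receptor. It measured 252, 154 and 163 CPM in DMSO, 161, 136 and 153 at 1 µM, 145, 138 and 184 at 1.5 µM, and 93.0, 68.1 and 72.0 at 3 µM. The 3 µM libraries lay below every other library, and the groups at 1 and 1.5 µM overlapped DMSO and each other. The mean at 3 µM was 2.44-fold below DMSO (log2 fold change −1.29 ± 0.202, adjusted p = 0.00042, edgeR). Against 1.5 µM it was −1.0 ± 0.201 (adjusted p = 0.00531), and the difference between 1.5 and 1 µM was 0.05 ± 0.198 (adjusted p = 0.907). The step from 1.5 to 3 µM missed the threshold without culture 2 (adjusted p = 0.0956) or culture 3 (0.0519). Exons of Prlr overlap those of Gm21973 on the same strand.

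Stat5a (ENSMUSG00000004043, chromosome 11, 100859351 to 100885169) and Stat5b (ENSMUSG00000020919, chromosome 11, 100780731 to 100850724) encode the closely related factors that prolactin activates. Stat5a measured 49.4, 52.2 and 57.1 CPM in DMSO, 47.8, 44.1 and 50.1 at 1 µM, 46.9, 40.3 and 49.5 at 1.5 µM, and 33.8, 32.1 and 37.9 at 3 µM. Stat5b measured 55.1, 66.9 and 74.2 CPM in DMSO, 56.6, 65.2 and 69.8 at 1 µM, 53.4, 60.0 and 73.5 at 1.5 µM, and 43.1, 45.3 and 42.8 at 3 µM. For both genes the 3 µM libraries lay below all 9 others, and the lower doses overlapped DMSO. At 3 µM Stat5a fell by 34.6% (log2 fold change −0.61 ± 0.106, adjusted p = 0.000739, edgeR). Stat5b fell by 33.1% (−0.58 ± 0.141, adjusted p = 0.00547), which was lost without culture 2 (0.0944). Against 1.5 µM the changes were −0.40 ± 0.105 for Stat5a (adjusted p = 0.0187) and −0.51 ± 0.141 for Stat5b (adjusted p = 0.0221). The first was lost without 1.5 µM replicate 1 or 3 or 3 µM replicate 1 or 2 (−0.38 to −0.33, adjusted p 0.0584 to 0.0712), without culture 1 (0.196) or 2 (0.117), and with only those 2 groups in the fit (0.0611). The second was lost without 3 µM replicate 1 or 2 or 1.5 µM replicate 3 (−0.53 to −0.37, adjusted p 0.0543 to 0.0798), and without culture 1 (0.0525), 2 (0.198) or 3 (0.0517). The replicate block also called Stat5a lower at 1.5 µM than in DMSO (−0.22, adjusted p = 0.0307). Stat5a and Stat5b are near-identical copies over long stretches, and Stat5a exons overlap Stat3 on the opposite strand, so how reads were split among these genes is uncertain.

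Nr3c1 (ENSMUSG00000024431, chromosome 18, 39410545 to 39491301) encodes the glucocorticoid receptor. It measured 174, 209 and 187 CPM in DMSO, 145, 178 and 187 at 1 µM, 131, 143 and 169 at 1.5 µM, and 104, 110 and 139 at 3 µM. The 1.5 and 3 µM libraries lay below all DMSO libraries, although culture 3 at 1.5 µM (169 CPM) came close to culture 1 in DMSO (174 CPM). The log2 fold change was −0.70 ± 0.147 at 3 µM (adjusted p = 0.00242, edgeR), with all 3 cultures lower, and the call was lost without culture 2 (0.0918). At 1.5 µM it was −0.37 ± 0.146 (adjusted p = 0.0879), which passed with the replicate block (0.00912) and in DESeq2 (−0.39, 0.0373), without culture 3 (−0.47, 0.0323) and without 3 µM replicate 3 (−0.39, 0.0413). Nr3c1 and Greb1 were the 2 members whose 1.5 µM libraries all lay below DMSO, where 20.7% of tested genes did so. The step from 1.5 to 3 µM was −0.33 ± 0.146 (adjusted p = 0.113). It was called with the block (−0.33, 0.016), with scaling by total counts alone (−0.60, 0.013) and without 3 µM replicate 3 (−0.46, 0.0335).

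At 1 µM no member was called in edgeR, with or without the block, or in DESeq2, and none had an unadjusted p under 0.05. Over all tested genes 0.242% were called at this dose. The median log2 fold change of the members was −0.18 at 1 µM and −0.37 at 1.5 µM, against 0 over all tested genes at both doses. The comparisons with DMSO share their 3 control libraries, so these medians are not independent of each other. Between 1 and 1.5 µM no member passed in edgeR without the block or in DESeq2 (5.43% of all genes did in edgeR). Greb1 had an unadjusted p of 0.0223 there (edgeR). With the block Pgr (−1.20, adjusted p = 0.0174) and Greb1 (−2.18, 0.0176) were called lower in this step. From 1.5 to 3 µM the 3 that fell without the block were Prlr, Stat5a and Stat5b, where 29.7% of all genes were called and 12.7% were called lower. The block called Esr1, Pgr and Nr3c1 lower there as well. In both steps it also called more of all tested genes.

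**Figure D2:**
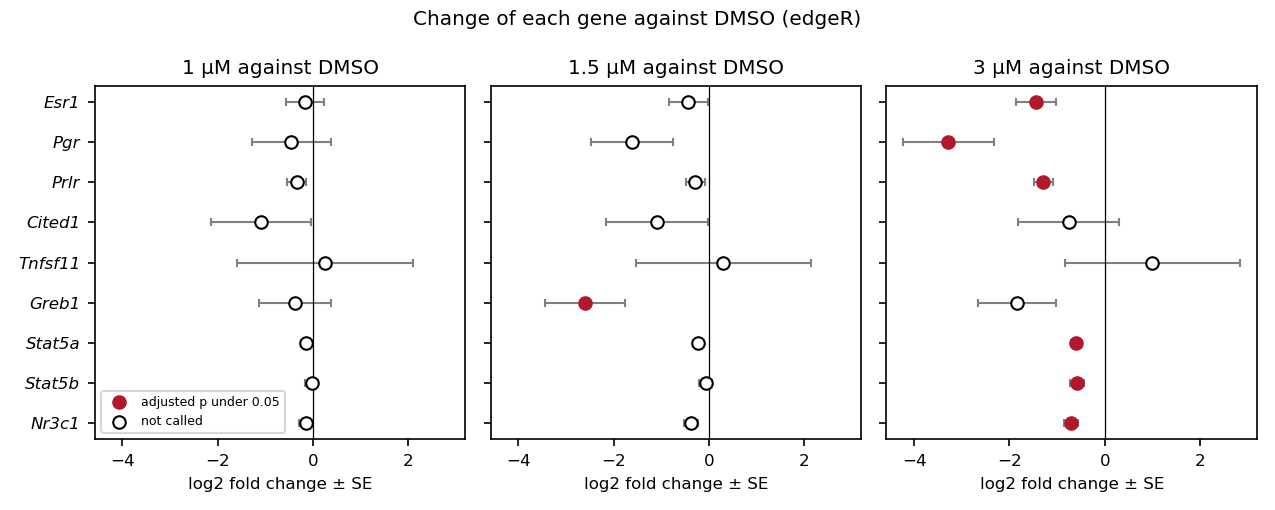
Log2 fold change of each gene against DMSO at 1, 1.5 and 3 µM (x axis, bars are ± SE from edgeR); filled points have an adjusted p under 0.05 over all tested genes. No point is filled at 1 µM, Greb1 is filled at 1.5 µM (−2.60) and 6 genes are filled at 3 µM, with Pgr farthest from 0 (−3.28).

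Levels of different genes were compared per kilobase of merged exons, since a longer transcript gives more reads. In DMSO Nr3c1 was highest with 24.7 ± 2.3 CPM per kb (SD, n = 3), above Prlr with 12.4 ± 3.53 and Stat5b with 11.8 ± 1.74, whose libraries overlapped. Stat5a followed with 7.42 ± 0.546. The other members were far lower, with Esr1 at 1.33 ± 0.44, Pgr at 0.902 ± 0.719, Tnfsf11 at 0.756 ± 0.811, Cited1 at 0.58 ± 0.535 and Greb1 at 0.36 ± 0.169 CPM per kb. Neighbours in this lower group overlapped between libraries, whereas all Esr1 libraries lay above all Greb1 libraries. At 3 µM Nr3c1 was still highest with 15.3 ± 2.44, and Stat5b (7.9 ± 0.246) stood above Prlr (5.07 ± 0.873) with no overlap. Pgr had the lowest mean there, with 0.0921 ± 0.0392 CPM per kb, beside Greb1 with 0.1 ± 0.107. The Pgr libraries at 3 µM overlapped those of Greb1, Cited1 and Tnfsf11.

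The cultures differed from each other for several members, in a test of the culture term beside the treatment that was added after the first results. It called 7 of the 9 genes, against 28.8% of all tested genes (edgeR). The clearest were Tnfsf11 (adjusted p = 0.000309), Pgr (0.00091) and Cited1 (0.00185). Over the 4 treatments Tnfsf11 averaged 0.0937, 0.769 and 6.03 CPM in cultures 1, 2 and 3, from 6, 48 and 397 counts. Pgr averaged 2.45, 1.87 and 8.17 CPM, and Cited1 0.294, 0.262 and 1.39 CPM. Culture 3 was the highest in these 3 genes. Esr1 had the other order, with 18.5 CPM in culture 1 and 11.1 and 11.4 in cultures 2 and 3 (adjusted p = 0.0201). The remaining calls were near the threshold, with Nr3c1 at 0.0374, Greb1 at 0.0486 and Stat5b at 0.049. Leaving out 1 library at a time gave 3 to 6 calls, and Tnfsf11, Pgr and Cited1 were called each time. The slope of log2 level per µM was not found to differ between cultures for any tested gene (edgeR, 0 of 15316, with 1230 at an unadjusted p under 0.05). For the members the lowest unadjusted p was 0.07, for Nr3c1.

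The summed level of fibroblast markers also differed between cultures. It was 1550, 7170 and 20200 CPM in DMSO and 164, 923 and 4480 CPM at 3 µM over 6 genes (Col1a1, Col1a2, Col3a1, Pdgfra, Dcn, Lum). None of these 6 genes was called at 3 µM against DMSO (edgeR), and the log2 fold change of Dcn was 0.44 ± 1.72. At each dose the fibroblast sum put the cultures in the same order as Tnfsf11 did. So did the summed immune markers (Ptprc, Cd68, Csf1r, Cd74), with 29.5, 110 and 176 CPM in DMSO. The part of either sum in the differences between cultures was not tested. Foxa1, a pioneer factor that opens sites for the oestrogen receptor, was likewise highest in culture 3, with 0.889, 0.203 and 7.92 CPM in DMSO.

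Members were compared with all other tested genes that averaged at least 50 counts by the Pearson correlation of log2 CPM over the 12 libraries, as a description. The libraries share cultures and doses, and many genes change with dose. The genes most like Pgr were Lrg1 (r = 0.957), C4a (0.948) and the milk gene Lalba (0.946). For Prlr they were 4933421O10Rik (0.944), Slco1a5 (0.943) and Kcnk5 (0.938), and for Greb1 Adam9 (0.959), Angpt2 (0.953) and Klhl22 (0.952). For Tnfsf11 they were P4ha1 (0.976), Ifi204 (0.974) and Dpy19l1 (0.973), and for Cited1 Gpr107 (0.926), Sectm1a (0.909) and Stat2 (0.903). Crbn (0.967) and Ikzf1 (0.951) were among the 3 most like Esr1. For Nr3c1 the 3 were Hspg2 (0.99), Slc2a13 (0.989) and Cd302 (0.988). Pcdhb7 (0.972) and Dnmbp (0.967) were near Stat5a, and Gmfg (0.966), Abi2 (0.966) and Slc38a10 (0.965) near Stat5b. Among the members themselves Pgr and Stat5a were the closest pair (0.897) and Esr1 and Tnfsf11 the most opposed (−0.548).

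The other genes of these hormone pathways were taken from 7 lists and are described at 3 µM against DMSO unless a dose is named. Their counts are to be read against all tested genes, of which 29.9% were called higher and 27.7% lower there (4575 and 4239 genes, and 5224 and 5335 with the replicate block). Of 7 other hormone receptors tested, 4 fell, 1 rose and 2 did not pass, with a median log2 fold change of −1.14 (all genes −0.03). Gper1, a membrane oestrogen receptor, measured 22.6, 15.2 and 11.2 CPM in DMSO and 0.706, 1.09 and 0.966 at 3 µM (log2 fold change −4.13, adjusted p = 8.76e-05, edgeR). The orphan receptor Esrra, a regulator of mitochondrial genes, rose by 0.85 (adjusted p = 0.00145). Its 3 µM libraries, at 69.2, 71.0 and 46.5 CPM, all lay above the DMSO libraries, at 34.7, 39.1 and 30.1. At 1.5 µM 3 of the 7 had fallen, where 11.8% of all tested genes were called lower. Esr2, the second oestrogen receptor, had at most 3 counts in a library and was not tested.

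Of 11 coregulators and pioneer factors, 5 fell and none rose, with a median of −0.25. With the replicate block, or with scaling by total counts alone, 8 fell, whereas 2 fell with only those 2 groups fitted, without 3 µM replicate 2 or without culture 2, and 3 without culture 1. Foxa1 was not called (−1.38 ± 1.53, adjusted p = 0.462), and without DMSO replicate 3 its difference was 0.94. Gata3, a factor needed for luminal cell identity, measured 120, 69.9 and 72.5 CPM in DMSO and 79.0, 51.1 and 50.9 at 3 µM. Its difference of −0.54 ± 0.269 was not called (adjusted p = 0.11), and was with the block (−0.53, 0.000561), with scaling by total counts alone (−0.75, 0.0442), without 3 µM replicate 1 (−0.81, 0.0397) and without culture 1 (−0.48, 0.0152).

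The 9 oestrogen and progesterone response genes tested split evenly, with 4 higher, 4 lower and 1 not called, and with 3 higher and 2 lower without culture 2. Areg, the EGF-family ligand that carries the oestrogen signal to neighbouring cells in the gland, rose by 4.49 ± 0.332 on the log2 scale (adjusted p = 4.61e-06, edgeR). It measured 1.69, 1.32 and 2.37 CPM in DMSO, 3.18, 4.88 and 4.87 at 1.5 µM, and 33.7, 44.6 and 44.9 at 3 µM, with its highest levels at the dose where Esr1 and Pgr were lowest. The chemokine gene Cxcl12 had the largest decrease (−4.34 ± 1.40, adjusted p = 0.0224), from 62.3, 159 and 353 CPM to 0.941, 7.12 and 20.2. That call was lost without DMSO replicate 3 (−3.58, 0.0616), 3 µM replicate 1 (−3.82, 0.0611) or 3 µM replicate 2 (−4.18, 0.075), without culture 2 (−4.29, 0.171), and without a count filter (−4.39, 0.052). In DMSO the level of Cxcl12 followed the fibroblast and the immune marker sums over the cultures, and the part of those sums in its change was not tested.

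Downstream of Prlr, 11 genes of prolactin and growth hormone signalling were tested, of which 3 fell and 1 rose (median −0.18), shares that are no larger than those over all tested genes. The calls were 2, both lower, with only the 2 groups fitted, without 3 µM replicate 2 or without DMSO replicate 3, and 1 without culture 2. The growth hormone receptor Ghr, a relative of Prlr, fell from 310, 588 and 370 CPM in DMSO to 37.3, 41.8 and 39.7 at 3 µM (−3.42 ± 0.279, adjusted p = 8.78e-06, edgeR). Stat6 rose by 0.26 (adjusted p = 0.0219), and this was lost without DMSO replicate 2 or 3 or 3 µM replicate 2 or 3 (0.19 to 0.24, adjusted p 0.0526 to 0.12). It was also lost without culture 2 (0.18) or 3 (0.22), with only the 2 groups fitted (0.21) and without a count filter (0.22), and was 0.05 when libraries were scaled by total counts alone. Jak2, the kinase bound to Prlr, was not called (−0.31 ± 0.295, adjusted p = 0.383), and was with the block (−0.37, 0.0368) and without culture 3 (−0.56, 0.0375).

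The 6 milk protein genes, classical STAT5 targets, did not move together. Lalba, which encodes a subunit of lactose synthase, fell from 10.3, 24.9 and 232 CPM in DMSO to 2.35, 1.67 and 2.42 at 3 µM (−5.38 ± 1.51, adjusted p = 0.0116, edgeR). The casein gene Csn1s2a fell by 2.75 on the log2 scale (adjusted p = 0.0283) from a mean of only 1.1 CPM. Csn1s1, another casein gene, measured 3.64, 5.28 and 128 CPM in DMSO and 157, 368 and 771 at 3 µM. It was higher in all 3 cultures but not called (3.23 ± 1.36, adjusted p = 0.0633), and was called with the block (4.22, 0.000459), in DESeq2 (3.21, 0.0213), without DMSO replicate 3 (6.59, 0.00275) and without culture 3 (5.92, 0.000633). Csn2, Csn3 and Wap were not called (adjusted p = 0.15, 0.134 and 0.55). With the block Csn2 was higher (3.94, adjusted p = 0.000118) and Csn3 lower (−2.55, 8.23e-05), which makes 5 calls in place of 2. Culture 3 had the highest level of all 6 genes in DMSO. Without DMSO replicate 3 the decreases were −3.06 for Lalba (adjusted p = 0.0518, and 0.0862 without culture 2) and −2.01 for Csn1s2a (0.116). The Csn1s2a call was also lost without 3 µM replicate 1 (−2.25, 0.0716) or 2 (−2.92, 0.0682) and without each culture in turn (−3.27 to −2.42, 0.0662 to 0.135).

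Of 11 genes of RANK ligand signalling, 2 rose, 1 fell and 8 did not pass (median 0.06), fewer in each direction than the shares over all tested genes, whereas the block gave 4 higher and 2 lower and leaving out culture 3 gave 3 higher and 2 lower. Tnfrsf11a, the receptor of RANK ligand, measured 25.8, 32.4 and 54.7 CPM in DMSO and 33.0, 31.4 and 24.9 at 3 µM and was not called (−0.34 ± 0.346, adjusted p = 0.42). Tnfrsf11b, the secreted decoy receptor osteoprotegerin, rose from 3.91, 4.06 and 3.72 CPM to 5.65, 10.7 and 6.76 (0.99 ± 0.265, adjusted p = 0.00921, edgeR), which was lost without culture 2 (0.70, 0.0775). The kinase gene Map3k14 fell by 0.76 (adjusted p = 0.00667), which was lost without culture 1 (−0.75, 0.0586).

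Of 13 genes tied to Nr3c1, 4 rose and 5 fell (median −0.22). Zbtb16, a gene that glucocorticoids induce, fell from 10.3, 13.1 and 11.5 CPM in DMSO to 0.235, 0.128 and 0.414 at 3 µM (−5.45 ± 0.425, adjusted p = 6.28e-06, edgeR). The 4 that rose were Hsp90aa1, Hsp90ab1, Fkbp4 and Ptges3, which encode HSP90 chaperones and cochaperones, and were named after their values were seen. Without culture 2 Hsp90ab1 was not called (0.58, adjusted p = 0.0798). Fkbp5, another HSP90 cochaperone of steroid receptors, was not called (0.28 ± 0.182, adjusted p = 0.211), and was with the block (0.0318). Hsp90aa1 rose from 250, 235 and 198 CPM to 451, 563 and 405 (1.06 ± 0.134, adjusted p = 0.000107). At 1.5 µM 27.3% of all tested genes were called, and 11.8% were called lower. At that dose these 4 had risen too, with Fkbp5, and 3 of the 13 had fallen, 8 calls in all. That count was 2 without DMSO replicate 2, 1.5 µM replicate 1 or culture 1, 3 without 1.5 µM replicate 2, 4 without DMSO replicate 3 and 1 without culture 2.

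**Figure D3:**
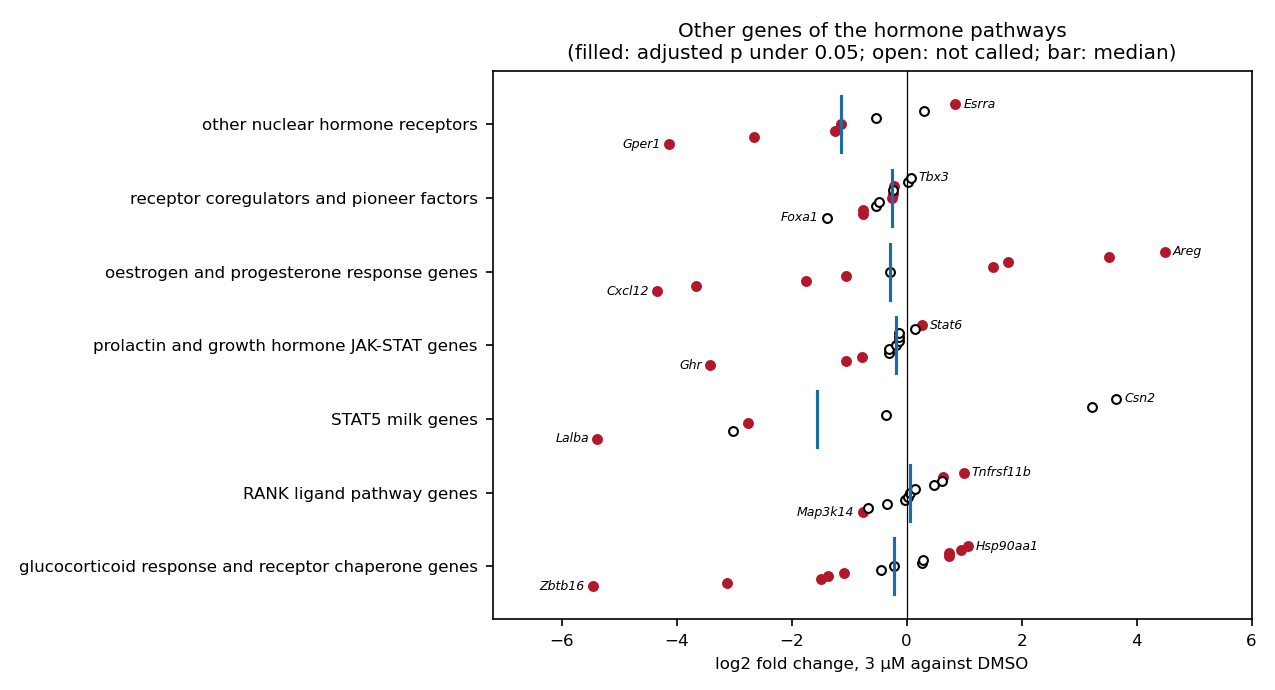
Log2 fold change at 3 µM against DMSO (x axis) of each tested gene in 7 lists (rows); filled points have an adjusted p under 0.05, the blue bar is the list's median, and the outermost gene on each side is named. Areg (4.49) and Cxcl12 (−4.34) mark the ends of the oestrogen and progesterone response genes, while the RANK ligand genes lie between −0.76 and 0.99.

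Marker genes of the cell types the organoids could hold changed with dose as well. The luminal keratins and epithelial genes summed to 2700 to 4440 CPM in DMSO and to 2240 to 2500 CPM at 3 µM. Of these 5 genes the keratins Krt8, Krt18 and Krt19 fell (−0.75, −0.48 and −2.11, adjusted p = 0.0137, 0.0115 and 0.000248, edgeR), while Epcam (0.37, 0.192) and Cdh1 (0.40, 0.165) were not called. Without DMSO replicate 1 both were called higher (0.62 and 0.68, adjusted p = 0.0426 and 0.023), as was Epcam without culture 1 (0.73, 0.0477) and Cdh1 with the block (0.44, 0.00943). The Krt8 call was lost without DMSO replicate 1 (−0.48, adjusted p = 0.0527) or culture 1 (−0.42, 0.145), and that of Krt18 without culture 1 (−0.33, 0.206) or 3 (−0.45, 0.0578) or with only the 2 groups fitted (−0.52, 0.0529). The 2 surface markers used to sort hormone-sensing luminal cells went the other way from the receptors. Prom1 rose from 12.0, 11.4 and 18.3 CPM to 77.9, 90.7 and 141, and Ly6a from 30.2, 35.1 and 44.1 to 230, 240 and 270 (2.89 and 2.76, adjusted p = 1.54e-05 and 1.99e-06). The 4 luminal progenitor markers summed to 843 to 2040 CPM in DMSO and 862 to 2220 CPM at 3 µM, and went both ways. Ltf, which encodes lactoferrin, rose from 82.3, 27.8 and 20.1 CPM to 1450, 1480 and 144 (4.56 ± 0.941, adjusted p = 0.00223, edgeR), and was not called without culture 2 (3.96, 0.0659). Aldh1a3, a retinaldehyde dehydrogenase gene, fell from 648, 322 and 166 CPM to 53.2, 91.5 and 97.6 (−2.23 ± 0.493, adjusted p = 0.0033), and was not called without culture 1 (−1.36, 0.0517) or 2 (−2.43, 0.0596). Kit (−0.81, adjusted p = 0.114) and Elf5 (−0.14, 0.614) were not called, though Kit was lower without DMSO replicate 3 (−1.12, 0.043) or culture 3 (−1.34, 0.0227). No cell type label is given for these bulk libraries, so the markers describe the mixture only.

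Basal or myoepithelial markers summed to 1980 to 3260 CPM in DMSO and to 14500 to 31300 CPM at 3 µM, through Krt5, Krt14 and Trp63, while Acta2, Myh11 and Oxtr fell. Squamous markers went from 27.7 to 58.3 CPM to 4980 to 24800 CPM. Adipocyte markers went from 2990 to 8050 CPM down to 36 to 227, endothelial markers from 211 to 455 CPM to 22.4 to 75.7, and immune markers from 29.5 to 176 CPM to 10.4 to 52.2. The immune ranges overlapped, although each culture was lower at 3 µM than in its own DMSO library. Of the 4 immune genes 3 fell, and Cd68 was not called (−1.21, adjusted p = 0.231, edgeR). No marker in these lists was at 0 in all libraries of a group. The summed adipocyte markers went down at each successive dose in every culture, as Pgr and Stat5a did. Nr3c1 did so too, except that in culture 3 it was 187 CPM in DMSO and at 1 µM. The share of all tested genes with this pattern was not counted. All 6 members that fell at 3 µM changed beside these marker shifts. The part of each cell type in the changes of the members was not tested.

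**Figure D4:**
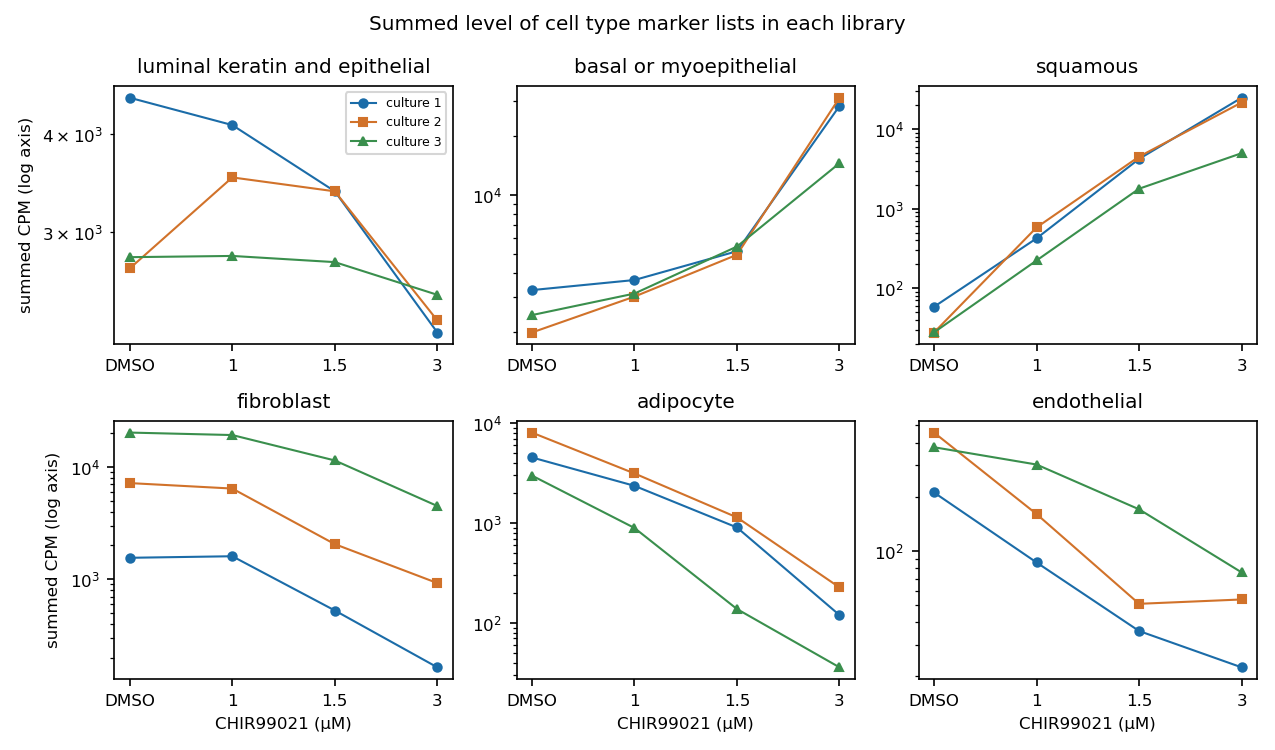
Summed CPM (log axis) of marker genes of 6 cell types in DMSO and at 1, 1.5 and 3 µM, with 1 line per culture. Squamous and basal sums are highest at 3 µM in each culture, adipocyte sums are lowest there (36 to 227 CPM), and fibroblast sums separate the cultures at every dose.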

How the data were processed

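RNA was measured in 12 libraries, 3 in each of 4 treatment groups, prepared with a stranded polyA kit per the labels' protocols. The deposited table holds whole read counts per Ensembl gene for 25210 genes. A second deposited table holds log2 values, which recomputation showed to be log2 of the count per 10 M plus 1, and it was not used in tests. The submitters' processing notes name TopHat2 2.1, Bowtie 1.1.0, HTSeq, DESeq2 and the builds GRCm38 and mm10, with no role or settings. The annotation release, and whether counting used strand, are not given in the sources used here. Coordinates are those of the deposited table. Exon lengths and overlaps come from GENCODE M21, which holds 24902 of the gene identifiers. Promoters come from RefSeq (GRCm38.p6).

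Counts were filtered with filterByExpr (15316 genes kept), scaled by TMM and fitted in edgeR 4.0.16 (R 4.3.3) with glmQLFit (robust) and glmQLFTest, two-sided, with a mean for each group, a shared spread over all 12 libraries and no block. P-values were adjusted by Benjamini-Hochberg over all tested genes, with a threshold of 0.05. Replicates of a group differed by more than sampling noise (chi-square per degree of freedom at least 12.8), so none was counted as a copy. Each replicate number is an animal per the series' design, so the numbers pair the libraries. Deviations from group means correlated at 0.177 to 0.84 in 18 same-number pairs (median 0.505), against a median of −0.212 in 36 other pairs. The deviations within a group cancel for each gene, so positive correlations in same-number pairs force negative ones among the others. The second median is therefore no separate support for the pairing. The block lowered the common coefficient of variation from 0.305 to 0.156. Its values stand beside a result where they change a call. Alternatives were the block, DESeq2 1.42.0, scaling by library size alone or by DESeq2 size factors, no count filter, fitting only the 2 groups compared, and leaving out each library or culture. Of these, only the block fitted the culture beside the treatment in the comparisons between doses.

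The genes, lists and tests were chosen with earlier results of these data known. All 9 members are named, and of each list the called genes with the largest increase and decrease at 3 µM, together with genes whose products bind a member and the milk genes. Genes outside these rules (single marker genes, Esr2, Fkbp5 and the HSP90 genes) were named after their values were seen. A gene that the rule names is not reported here. Likeness used log2 CPM with a prior count of 2.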

Additional observations from a re-analysis of the deposited data

How the results depend on the processing

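Alternatives counted here cover the members' changes and, at 3 µM, the other named genes. Of those other than leaving samples out, 417 kept direction and call, 22 gained and 6 lost the call, and 4 changed sign. Of the fits without a library or culture, 1033 kept both, 20 gained, 58 lost and 26 changed sign. The cause of these changes was not tested. Many of these fits left out a library outside the groups compared, which can move the result little. A gene called in neither fit also counts as kept. The numbers kept are therefore no measure of how firm the calls are.

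With the replicate block the members called were 4 at 1.5 µM, 2 in the step from 1 to 1.5 µM and 6 in the last step, in place of 1, 0 and 3. It changed no other member's call than those printed in the text. Under the block Tnfsf11 turned to −0.02 at 1 µM and −0.22 at 1.5 µM. DESeq2 called 2 members at 1.5 µM. Scaling by total counts alone called 5 between 1.5 and 3 µM, adding Esr1 (−1.30, adjusted p = 0.0386) and Nr3c1 (−0.60, 0.013), and gave Stat5b 0.04 at 1 µM and 0.00 at 1.5 µM. It moved the median of all genes at 3 µM from −0.03 to −0.23 and the split from 4575 higher and 4239 lower to 3395 and 5404, and all 6 members that fell kept their calls. The median between 1.5 and 3 µM moved to −0.28. Without a count filter 4 members differed between cultures.

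Without 1 library or culture, the members called ranged from 0 to 3 at 1.5 µM, 2 to 7 at 3 µM, 0 to 4 between 1.5 and 3 µM and 3 to 6 between cultures. Log2 fold changes that changed sign ranged, at 1 µM, from −0.48 to 0.07 for Esr1, −1.49 to 0.40 for Pgr, −1.89 to 0.00 for Cited1, −2.08 to 1.65 for Tnfsf11, −0.81 to 0.02 for Greb1 and −0.14 to 0.05 for Stat5b. At 1.5 µM they ranged from −0.51 to 0.03 for Prlr, −2.92 to 1.70 for Tnfsf11 and −0.20 to 0.03 for Stat5b. At 3 µM they ranged from −2.80 to 0.32 for Cited1, −1.91 to 2.39 for Tnfsf11, −1.95 to 0.94 for Foxa1, −0.60 to 0.10 for Wap, −0.63 to 0.15 for Tnfrsf11a and −0.38 to 0.07 for Elf5.

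All genes called at 1 µM (37) were 859 with the block, 470 in DESeq2 and 0 when only the 2 groups were fitted. At 1.5 µM (4177) they were 7147 with the block. Between 1 and 1.5 µM (831) they were 3351 with the block, 1610 in DESeq2 and 494 without a filter, and between 1.5 and 3 µM (4544) 7149 with the block and 2852 with only the 2 groups. Without 1 library or culture they ranged from 0 to 119, 457 to 5085, 4769 to 9391, 0 to 1508 and 345 to 5682 at 1, 1.5 and 3 µM against DMSO and in the 2 steps. Low counts limit Tnfsf11, Cited1 and Greb1 most.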
